A study of Mus musculus with 32 samples.

Results

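Potassium channel genes were examined in the striatal transcriptome of 8 B6.D2 congenic mice and 8 B6 mice. The genes were taken by symbol, as *Kcn* followed by a subfamily letter or letters and a number, and were retained where the mean over the 16 mice was at least 1 CPM (the reads on a gene scaled to a common library size). Of 93 such symbols in the count files, 75 met this minimum, 18 were below it, and 1 of these 18 (*Kcnk16*) had no read in any mouse. The 75 genes are set here against all 23420 genes counted and the 15589 genes that passed the filter on low counts, which included all 75. B6 denotes the inbred strain C57BL/6J, and the B6 mice were wild-type littermates of the congenics. B6.D2 denotes Line 4a, in which 1 copy of a segment of chromosome 11 comes from the strain DBA/2J and the rest of the genome is from C57BL/6J, so that every congenic mouse was heterozygous for that segment and carried its other copy from B6. All mice were untreated and about 50 days old by the labels, and bilateral punches of the striatum were pooled into 1 library per mouse. The labels do not say whether the 8 mice of a genotype came from 1 litter or several.

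Potassium channels are pores through which potassium leaves a cell, which moves the membrane towards its resting potential and limits firing. Voltage-gated channels (*Kcna* to *Kcnd*, *Kcnh* and *Kcnq*) open on depolarization, silent subunits (*Kcnf*, *Kcng*, *Kcns* and *Kcnv*) form no channel alone and modify voltage-gated channels, inward rectifiers (*Kcnj*) pass current near rest, and tandem-pore channels (*Kcnk*) carry leak current. In the striatum the principal neurons are GABAergic projection neurons whose hyperpolarized resting state is set largely by inward rectifiers, and whose delay to the first spike depends on A-type currents carried by *Kcnd* channels with KChIP proteins, the products of *Kcnip* genes.

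The libraries held between 19032826 and 33748353 reads on genes, and the 31 lane files were summed per mouse, since repeat lanes of 1 library differed by about sampling noise. Markers of the labelled tissue were present in all mice, and the summed level of 11 markers of striatal projection neurons lay between 6003 and 8837 CPM in B6 and between 6535 and 7638 CPM in B6.D2 mice. Markers of cortical glutamatergic neurons, which are not cells of the striatum, differed in mean between the genotypes. All 12 had a lower mean in B6.D2, 8 of them at an unadjusted p-value under 0.05 and none at a false discovery rate (FDR) of 5%, and their sum lay between 773 and 1177 CPM in B6 and between 591 and 1040 CPM in B6.D2 mice. No marker of this list was at 0. One library stood apart for potassium channel genes, that of B6.D2 mouse 1. In this mouse 11 of the 75 genes were more than 1 log2 unit below the median of the other 7 congenic mice and none was more than 1 above, against 6.19% and 1.17% of all genes tested. In the other 15 mice between 0 and 3 of the 75 genes were that far below. In B6.D2 mouse 1, 27.3% of reads aligned to more than 1 place, against 19.5% to 21.4% in the other mice. The dopamine neuron markers *Th* and *Slc18a2* were the highest of the 8 congenics at 10.5 and 11.2 CPM. *Slc6a3*, also of that list, was below the filter on low counts. Marker scores (mean standardized log2 CPM of a list) were also the highest of the 16 mice for interneurons (1.15), oligodendrocytes (1.37), astrocytes (0.82) and microglia (1.02). Those of cortical, projection neuron, endothelial and mural, choroid plexus and hypothalamic markers were not. The part of these features in the results was not tested, and estimates without this mouse are given for the genes at an unadjusted p under 0.05 and for those in which it lay far from the other congenics.

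The levels of the 75 genes, compared after division by exon length (CPM per kb of annotated exon), ranged from 0.157 to 99.4. *Kcnip2*, which encodes KChIP2, a calcium-binding partner of A-type channels, had the highest level per length at 99.4 ± 9.35 CPM per kb (SD, n = 16 mice). Other genes with high levels were *Kcna2*, a delayed rectifier of axons, at 83.7 ± 8.04 CPM per kb, and *Kcnj4*, the inward rectifier Kir2.3, at 82.8 ± 9.46 CPM per kb. The order of *Kcnip2* and *Kcna2* was separated by more than either SD, whereas *Kcna2* and *Kcnj4* differed by less than their SD. *Kcnab2*, a cytoplasmic subunit of Kv1 channels, lay at 72.2 ± 4.00 CPM per kb. *Kcnj10*, the inward rectifier of astrocytes, lay at 66.0 ± 7.33 CPM per kb. At the other end, *Kcnh7* (ERG3) was at 0.157 CPM per kb.

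Within subfamilies 1 or a few genes dominated. Among tandem-pore channels *Kcnk1* led with 46.1 ± 4.23 CPM per kb, and *Kcnk10* was lowest at 0.926 CPM per kb. *Kcnd2* (Kv4.2) reached 39.2 ± 2.50 CPM per kb and *Kcnd1* 1.71 CPM per kb. *Kcnh3*, of the ether-a-go-go family, was at 45.6 ± 3.85 CPM per kb. The sodium-activated channel *Kcnt1* lay at 42.5 ± 5.66 CPM per kb, far above its paralog *Kcnt2* at 1.59 CPM per kb. The leading genes of the remaining subfamilies were *Kcnc1* at 21.6, *Kcnf1* and *Kcnq5* both at 15.5, *Kcnv1* at 13.8, *Kcnn3* and *Kcns2* both at 12.5, *Kcnma1* at 12.5, *Kcnmb4* at 7.73, *Kcne1l* at 7.17, *Kcng1* at 4.00 and *Kcnu1* at 1.20 CPM per kb. The genes nearest the minimum were *Kcne4* at 1.16 and *Kcng2* at 1.5 CPM inside it, and *Kcnk5* at 0.881 and *Kcnq1* at 0.762 CPM outside it. Exon lengths came from an annotation of another build than the one used for counting, so levels per length are approximate. In that annotation 39.5%, 31.5% and 31.1% of the exon bases of *Kcna6*, *Kcnmb4* and *Kcnj3* overlap antisense genes. Strand was not used in counting, and reads on exons of more than 1 gene were left out. Reads on these bases were therefore lost where the counting annotation also holds the antisense gene, and were otherwise counted whatever their strand.

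**Figure D1:**
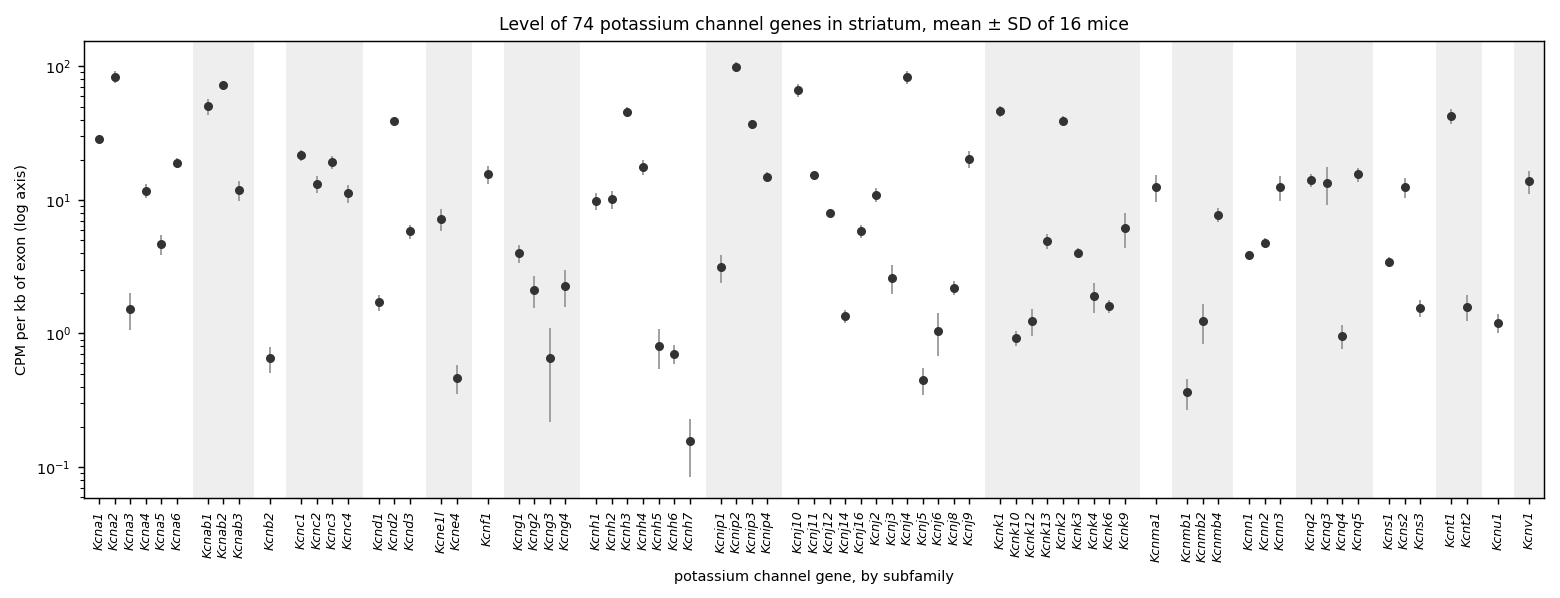
Mean level of 74 of the 75 genes in 16 mice, in CPM per kb of exon on a log axis, with the SD as bars and genes ordered by subfamily. Levels run from 0.157 (*Kcnh7*) to 99.4 CPM per kb (*Kcnip2*), and most subfamilies hold both high and low genes.

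Whether the D2 segment goes with a difference in these genes was addressed by edgeR's quasi-likelihood test, fitted over all 15589 genes. No potassium channel gene differed at an FDR of 5%, the lowest FDR was 0.331, and 0.00641% of all genes (1 gene) passed this threshold. The unadjusted p-value was under 0.05 for 14 of the 75 genes. Of these, 13 had a lower mean in B6.D2, which is 17.3% of the 75 against 5.14% of all genes, and 1 (*Kcnh4*) had a higher mean, which is 1.33% against 4.86%. Counted without regard to p, 50 of the 75 genes (66.7%) had a lower mean in B6.D2, against 45.1% of all genes. The median log2 fold change was -0.07 over the 75 genes and 0.01 over all genes, and single estimates lay between -1.03 and 0.23. The groups overlapped for each of the 75 genes (0 of 75 without overlap), and failed to overlap for 0.0577% of all genes. In bulk tissue, fewer cells of a type and less RNA per cell cannot be told apart, for any of these genes.

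Without B6.D2 mouse 1, 17 genes had a lower mean at an unadjusted p-value under 0.05 (22.7%, against 7.54% of all genes) and 2 a higher mean (2.67%, against 5.82%), and the lowest FDR was 0.204. Of the 14 genes named above, 13 remained at p under 0.05 in that fit and *Kcnh1* did not, at p = 0.0565. The 6 that entered were *Kcna3*, *Kcng2*, *Kcnip4*, *Kcnk9*, *Kcnq3* and *Kcnt1*. The median over the 75 genes was then -0.06. For all 14 genes the sign was the same within either pair of lanes on which the libraries were run. They were chosen on these same mice, so this is not a separate test of their direction.

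**Figure D2:**
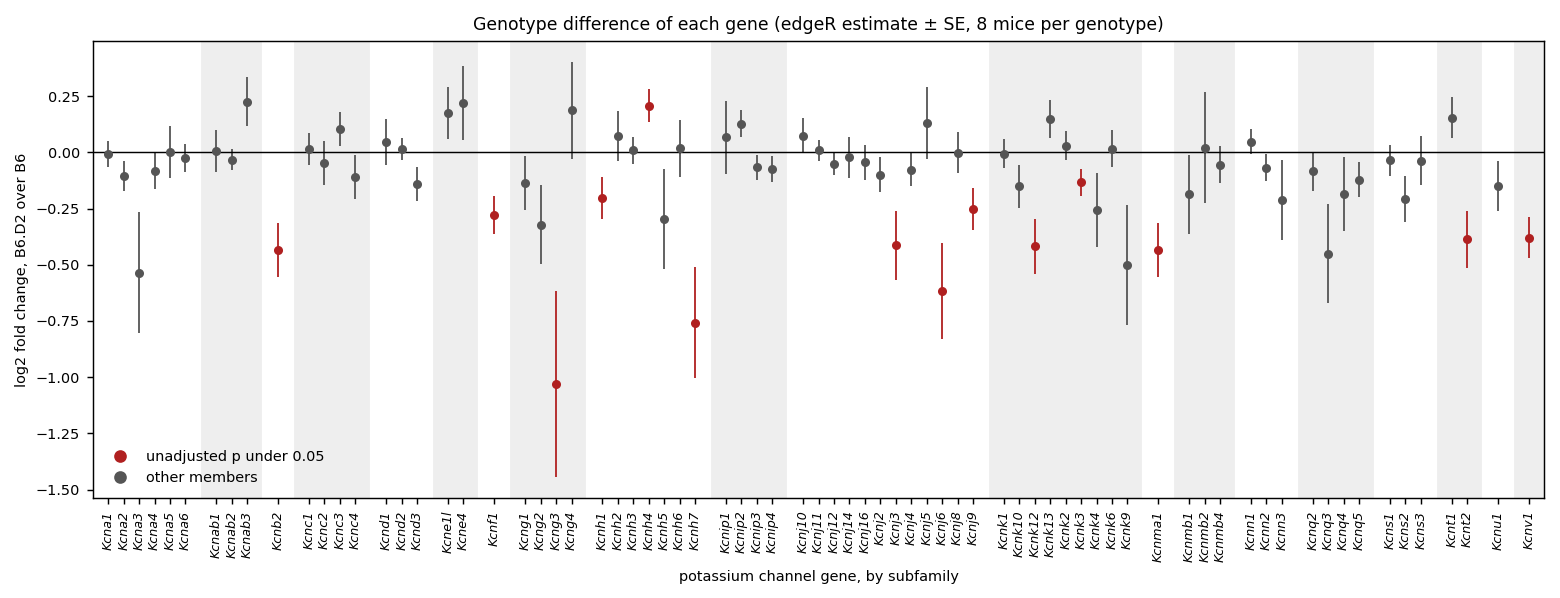
Log2 fold change of B6.D2 over B6 for 74 of the 75 genes, with the standard error as bars, by subfamily, and with the 14 genes at an unadjusted p under 0.05 in red. Of the red genes, 13 lie below 0 and *Kcnh4* lies above it, and none passed an FDR of 5%.

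Of the subunits of the G-protein-gated inward rectifier (GIRK), the 3 of the neuronal channel had a lower mean in B6.D2 at an unadjusted p under 0.05 and none passed an FDR of 5%. With a score of the 12 cortical markers fitted beside genotype, the log2 fold change was -0.10 for *Kcnj6* (p = 0.673), -0.09 for *Kcnj9* (p = 0.432) and -0.22 for *Kcnj3* (p = 0.286). The channel opens when opioid, dopamine D2 or GABA-B receptors release Gβγ. *Kcnj3* encodes GIRK1, *Kcnj6* GIRK2, *Kcnj9* GIRK3 and *Kcnj5* GIRK4, the latter mainly a subunit of the heart. The first 3 lie on different chromosomes, so their DNA just upstream of a RefSeq start is shown, on the strand of the gene, for the 250 bases before the start in GRCm38.p6. Capitals mark TATAAA or GGGCGG on either strand.
Kcnj3, chr2:55435720-55435969 (+): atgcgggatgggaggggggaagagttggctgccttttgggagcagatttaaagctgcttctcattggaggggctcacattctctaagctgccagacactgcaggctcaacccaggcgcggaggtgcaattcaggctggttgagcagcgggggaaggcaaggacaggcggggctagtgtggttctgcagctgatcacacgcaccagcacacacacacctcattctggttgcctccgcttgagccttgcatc
Kcnj6, chr16:94997697-94997946 (-): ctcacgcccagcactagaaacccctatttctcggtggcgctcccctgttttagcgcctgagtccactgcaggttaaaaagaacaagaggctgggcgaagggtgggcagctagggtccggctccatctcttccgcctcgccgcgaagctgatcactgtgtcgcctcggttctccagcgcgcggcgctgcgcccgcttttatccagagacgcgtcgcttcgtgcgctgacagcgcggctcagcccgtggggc
Kcnj9, chr1:172329323-172329572 (-): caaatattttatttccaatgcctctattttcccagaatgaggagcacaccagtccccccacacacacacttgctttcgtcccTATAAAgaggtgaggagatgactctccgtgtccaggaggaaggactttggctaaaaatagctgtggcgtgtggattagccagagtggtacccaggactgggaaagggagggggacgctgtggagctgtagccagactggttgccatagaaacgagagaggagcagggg
*Kcnj6* has a further RefSeq start downstream, which is not shown and whose window holds GGGCGG once, on the opposite strand. The *Kcnj3* window lies inside the RefSeq span of that gene, which begins at 55411798, and so not at its outer end. The upstream GC content was 58.4% for *Kcnj3*, 64.0% for *Kcnj6* and 52.0% for *Kcnj9*, with 7, 26 and 5 CpG dinucleotides. Only the *Kcnj9* window held TATAAA among these 3, a motif in 12.4% of all 32851 promoter windows and in 2 of 76 windows of potassium channel genes. None of the 3 windows shown held GGGCGG, a motif in 32.7% of all windows and in 35 of the 76. TGACGTCA, the cAMP response element, is in 1.55% of all windows, and GCGNGGGCG, the motif of early growth response factors, in 4.7%, and neither was in the 3 windows. Of the 75 genes, 53 had at least 1 window in the RefSeq table, and *Kcnv1* was not among them.

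*Kcnj3* was at 13.4, 14.7 and 19.3 CPM (lowest, median and highest) in B6 mice and at 5.05, 12.3 and 14.7 CPM in B6.D2 mice. All 8 congenic mice lay below the B6 median, with an overlap at the upper end of the congenics and the lower end of B6. The log2 fold change was -0.41 ± 0.15 (SE) with p = 0.0153 and FDR = 0.421, and -0.30 ± 0.09 without B6.D2 mouse 1, which had the lowest value. *Kcnj6* was at 4.78, 7.29 and 9.70 CPM in B6 and at 1.85, 5.01 and 6.97 CPM in B6.D2 mice, and again each of the 8 congenics was under the median of B6. The difference was -0.62 ± 0.21 on the log2 scale (p = 0.00975, FDR = 0.397), and -0.50 ± 0.17 without B6.D2 mouse 1. *Kcnj9*, the most abundant of the neuronal subunits per length at 20.3 CPM per kb, was at 65.2, 72.3 and 75.9 CPM in B6 and at 39.7, 60.7 and 76.5 CPM in B6.D2 mice. Below the B6 median lay 7 of 8 congenics, and B6.D2 mouse 2 was the highest of all 16 mice. For *Kcnj9* the log2 fold change was -0.25 ± 0.09 (p = 0.0145, FDR = 0.421), and -0.18 ± 0.06 without B6.D2 mouse 1. *Kcnj5* was near the detection minimum, at 1.24 to 2.94 CPM in B6 and 1.46 to 2.60 CPM in B6.D2 mice, with a log2 fold change of 0.13 ± 0.16 (p = 0.419). Over all 12 *Kcnj* genes, these 3 were at p under 0.05, 9 had a lower mean and 3 a higher one in B6.D2, and the median log2 fold change was -0.05. *Kcnj4*, the Kir2.3 gene, was at 164 to 243 CPM in B6 and 157 to 189 CPM in B6.D2 mice, with a log2 fold change of -0.08 ± 0.07 (p = 0.306).

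The smallest p-value of the 75 genes belonged to *Kcnv1*, on chromosome 15 of mm10 from 45096086 to 45115912, which encodes the silent subunit Kv8.1. It was at 56.2, 64.8 and 84.4 CPM in B6 and at 47.3, 53.8 and 64.5 CPM in B6.D2 mice. All 8 congenics lay below the B6 median and the ranges overlapped between 56.2 and 64.5 CPM. On the log2 scale the difference was -0.38 ± 0.09 (p = 0.000574, FDR = 0.331), and it was -0.36 ± 0.09 without B6.D2 mouse 1. The FDR of *Kcnv1* was 0.04998 with DESeq2 and 0.0502 with edgeR's likelihood ratio test. *Kcnf1*, the silent subunit Kv5.1, was at 70.5, 81.1 and 94.6 CPM in B6 and at 53.3, 65.6 and 81.3 CPM in B6.D2 mice, so that 7 of 8 congenics lay below the B6 median. The log2 fold change of *Kcnf1* was -0.28 ± 0.09 (p = 0.00431, FDR = 0.365), and -0.24 ± 0.08 without B6.D2 mouse 1.

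*Kcnb2*, a delayed rectifier pore subunit with which silent subunits can assemble, was at 0.649 CPM per kb. It was at 4.09, 5.12 and 5.99 CPM in B6 and at 2.48, 3.67 and 4.92 CPM in B6.D2 mice. All 8 congenics were below the B6 median, and the log2 fold change was -0.43 ± 0.12 (p = 0.00219, FDR = 0.334), or -0.37 ± 0.10 without B6.D2 mouse 1. *Kcng3*, the silent subunit Kv6.3, had the widest spread of the 75 genes, with a within-genotype SD of 1.09 log2 units, against a median of 0.20 over the 75 genes. It was at 0.968, 3.28 and 4.88 CPM in B6 and at 0.220, 1.60 and 2.93 CPM in B6.D2 mice, in which both groups had mice near 1 CPM. The log2 fold change of -1.03 ± 0.41 (p = 0.0222, FDR = 0.445) became -0.87 ± 0.37 without B6.D2 mouse 1. The other *Kcng* genes gave log2 fold changes of -0.14 (*Kcng1*, p = 0.267), -0.32 (*Kcng2*, p = 0.0819) and 0.19 (*Kcng4*, p = 0.400). Without B6.D2 mouse 1 that of *Kcng1* was -0.04 ± 0.07 and that of *Kcng2* -0.44 ± 0.16 (p = 0.0124). *Kcns2*, a further silent subunit, was at -0.21 (p = 0.0541).

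Among channels gated by calcium or sodium, *Kcnma1*, the pore subunit of the large-conductance BK channel, was at 49.0, 68.7 and 81.7 CPM in B6 and at 31.2, 53.2 and 57.6 CPM in B6.D2 mice. All 8 congenics were below the B6 median, with 2 of 8 B6 mice inside the congenic range. For *Kcnma1* the log2 fold change was -0.43 ± 0.12 (p = 0.00188, FDR = 0.331), and -0.36 ± 0.09 without B6.D2 mouse 1. None of the tested beta subunits, which change BK gating, was at p under 0.05, with or without B6.D2 mouse 1. *Kcnmb4*, the neuronal form, had a log2 fold change of -0.05 ± 0.08 (p = 0.512), *Kcnmb2* 0.02 ± 0.25 (p = 0.932) and *Kcnmb1* -0.19 ± 0.18 (p = 0.303). Without that mouse these were -0.12 ± 0.06 (p = 0.0598), -0.07 ± 0.24 (p = 0.767) and -0.12 ± 0.17 (p = 0.487). B6.D2 mouse 1 was the highest congenic for *Kcnmb4*, at 33.1 CPM. The sodium-activated *Kcnt2* was at 9.87, 10.9 and 14.7 CPM in B6 and at 5.11, 8.76 and 11.4 CPM in B6.D2 mice, and 7 of 8 congenics were below the B6 median. The *Kcnt2* log2 fold change was -0.39 ± 0.13 (p = 0.00661, FDR = 0.385), whereas that of the far more abundant *Kcnt1* was 0.15 ± 0.09 (p = 0.104). These became -0.31 ± 0.10 for *Kcnt2* and 0.21 ± 0.07 (p = 0.0125) for *Kcnt1* without B6.D2 mouse 1. The small-conductance channel *Kcnn3* had a log2 fold change of -0.21 ± 0.18 (p = 0.254), with B6.D2 mouse 1 far below the other congenics, which were at 34.2 CPM or more, and of -0.08 ± 0.06 (p = 0.225) without that mouse. *Kcnu1*, a pH-gated relative of BK known from sperm, was at 3.44 to 5.69 CPM in B6 and 3.71 to 5.47 CPM in B6.D2 mice (log2 fold change -0.15 ± 0.11).

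**Figure D3:**
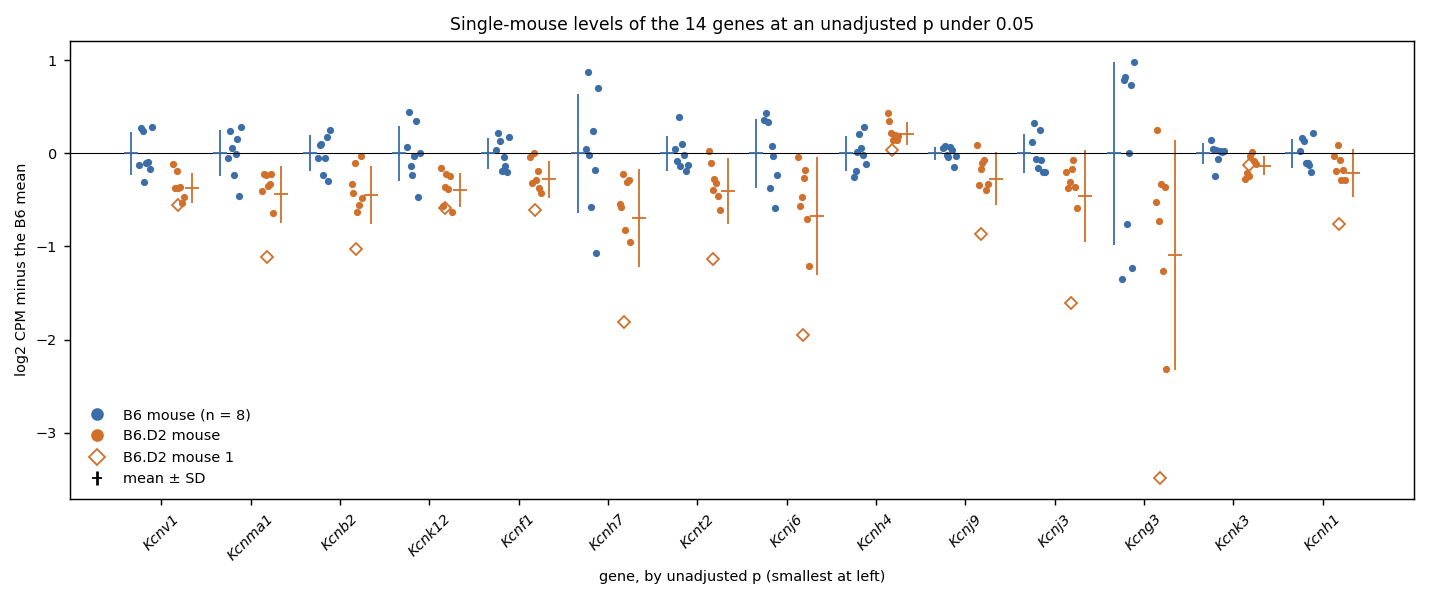
Levels in single mice of the 14 genes at an unadjusted p under 0.05, as log2 CPM minus the B6 mean, with B6 mice in blue, B6.D2 mice in orange, B6.D2 mouse 1 as an open diamond, and the mean ± SD of each group beside the points. The groups overlap for all 14 genes, and the diamond is the lowest congenic mouse for all but *Kcnk12* and *Kcnk3*.

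Of the 9 tandem-pore genes, 2 were lower at an unadjusted p under 0.05. *Kcnk12*, which encodes THIK2, was at 1.94, 2.65 and 3.63 CPM in B6 and at 1.73, 2.07 and 2.41 CPM in B6.D2 mice, and its log2 fold change was -0.42 ± 0.12 (p = 0.00315, FDR = 0.350). *Kcnk3*, the acid-sensitive leak channel TASK-1, was at 13.5, 16.2 and 17.6 CPM in B6 and at 13.2, 14.7 and 16.1 CPM in B6.D2 mice, and its log2 fold change was -0.13 ± 0.06 (p = 0.0361, FDR = 0.472). For both genes all 8 congenics lay below the B6 median, and without B6.D2 mouse 1 the values were -0.39 ± 0.12 for *Kcnk12* and -0.14 ± 0.06 for *Kcnk3*. *Kcnk9*, the related TASK-3, was at 7.34, 9.10 and 9.92 CPM in B6 and at 0.690, 7.00 and 8.07 CPM in B6.D2 mice, where the lowest value was B6.D2 mouse 1 and the next congenic was at 5.10 CPM. Its log2 fold change of -0.50 ± 0.27 (p = 0.0774) became -0.33 ± 0.10 (p = 0.00305, FDR = 0.229) without that mouse. *Kcnk1* gave -0.01 ± 0.06 (p = 0.934), or -0.06 ± 0.05 without B6.D2 mouse 1, its highest congenic, *Kcnk10* -0.15 ± 0.10 (p = 0.134) and *Kcnk13*, the paralog of *Kcnk12*, 0.15 ± 0.08 (p = 0.0903).

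*Kcna3*, the delayed rectifier Kv1.3, resembled *Kcnk9* in these libraries. It was at 2.89, 3.67 and 4.02 CPM in B6 and at 0.188, 2.78 and 3.06 CPM in B6.D2 mice. All 8 congenics lay below the B6 median, the overlap rested on B6 mouse 7 at 2.89 CPM, and B6.D2 mouse 1 was far below the rest. Its log2 fold change was -0.54 ± 0.27 (p = 0.0622), and -0.36 ± 0.09 (p = 0.00108, FDR = 0.204) without B6.D2 mouse 1. *Kcnq3*, a subunit of the M-channel that is closed by muscarinic receptors, was at 24.9, 40.7 and 57.3 CPM in B6 and at 9.09, 31.2 and 39.8 CPM in B6.D2 mice. Its log2 fold change was -0.45 ± 0.22 (p = 0.0558), and -0.32 ± 0.14 (p = 0.0418) without that mouse. All 4 *Kcnq* genes had a lower mean in B6.D2 and none was at p under 0.05. *Kcnq5*, the most abundant of them per length, had a log2 fold change of -0.12 ± 0.08 (p = 0.137).

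The ether-a-go-go family contained genes at p under 0.05 in both directions. *Kcnh4*, on chromosome 11 of mm10 from 100740378 to 100760115 and a member of the ELK group of these channels, was the only 1 of the 75 with a higher mean in B6.D2 at that threshold. It was at 54.4, 64.7 and 78.9 CPM in B6 and at 66.1, 74.0 and 87.1 CPM in B6.D2 mice, and all 8 congenics lay above the B6 median. The *Kcnh4* log2 fold change was 0.21 ± 0.07 (p = 0.0118, FDR = 0.407), and 0.23 ± 0.07 without B6.D2 mouse 1. Its sequence upstream of a RefSeq start is given because it was the gene that differed in direction from the others, with a GC content of 70.8%, 20 CpG dinucleotides and GGGCGG once, in capitals. The window lies inside the gene span given above, and so not at its outer end.
Kcnh4, chr11:100759779-100760028 (-): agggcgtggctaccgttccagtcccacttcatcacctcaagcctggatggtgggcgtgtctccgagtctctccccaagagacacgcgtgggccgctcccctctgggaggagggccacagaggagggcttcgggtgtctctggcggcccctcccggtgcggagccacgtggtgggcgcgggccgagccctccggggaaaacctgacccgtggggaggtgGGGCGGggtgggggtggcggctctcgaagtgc
*Kcnh7* was at 1.31, 2.78 and 5.04 CPM in B6 and at 0.784, 1.87 and 2.36 CPM in B6.D2 mice, with a log2 fold change of -0.76 ± 0.25 (p = 0.00649, FDR = 0.385), and all 8 congenics were below the B6 median although 2 B6 mice were lower than several of them. The *Kcnh7* estimate was -0.65 ± 0.22 without B6.D2 mouse 1. *Kcnh1* (EAG1) was at 66.9, 75.1 and 89.5 CPM in B6 and at 45.6, 67.8 and 82.0 CPM in B6.D2 mice. Its log2 fold change of -0.20 ± 0.09 (p = 0.0449, FDR = 0.489) was -0.14 ± 0.07 (p = 0.0565) without B6.D2 mouse 1. *Kcnh3* had a log2 fold change of 0.01 ± 0.06 (p = 0.895), and *Kcnh6* 0.02 ± 0.13 (p = 0.888).

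No gene of the *Kcnd*, *Kcnip*, *Kcna* or *Kcnab* subfamilies, which form A-type and Kv1 channels, was at an unadjusted p under 0.05 with all mice included. *Kcnd2* was at 180 to 230 CPM in B6 and 188 to 214 CPM in B6.D2 mice, with a log2 fold change of 0.01 ± 0.05 (p = 0.788). *Kcnip2* was at 287, 335 and 366 CPM in B6 and at 326, 361 and 424 CPM in B6.D2 mice, and 6 of 8 congenics were above the B6 median, with a log2 fold change of 0.13 ± 0.06 (p = 0.0518, FDR = 0.502). *Kcna2* had a log2 fold change of -0.11 ± 0.07 (p = 0.141), or -0.06 ± 0.05 without B6.D2 mouse 1, and *Kcnab2* of -0.03 ± 0.05 (p = 0.489). *Kcnc1*, the Kv3.1 channel of fast-spiking interneurons, had a log2 fold change of 0.01 ± 0.07 (p = 0.854), and *Kcnc2* (Kv3.2) of -0.05 ± 0.10 (p = 0.638). *Kcna5* was at 0.00 ± 0.12 (p = 0.993). The auxiliary *Kcne* genes had higher means in B6.D2, with log2 fold changes of 0.18 ± 0.12 for *Kcne1l* (p = 0.148) and 0.22 ± 0.16 for *Kcne4* (p = 0.199). Without B6.D2 mouse 1, the highest congenic for *Kcne1l*, these were 0.08 ± 0.09 and 0.10 ± 0.15.

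Because the congenic segment is on chromosome 11, the 8 potassium channel genes of that chromosome were considered separately. None of them overlapped the heterozygous segment of Line 4a, bounded outward by the nearest markers of B6 genotype. Besides *Kcnh4*, none was at p under 0.05. *Kcnab3*, a Kv1 auxiliary subunit, was at 21.6, 32.4 and 38.0 CPM in B6 and at 27.8, 38.4 and 42.4 CPM in B6.D2 mice, with a log2 fold change of 0.23 ± 0.11 (p = 0.0559). The inward rectifiers *Kcnj2*, *Kcnj12* and *Kcnj16* had log2 fold changes of -0.10 ± 0.08 (p = 0.216), -0.05 ± 0.05 (p = 0.330) and -0.05 ± 0.08 (p = 0.563). *Kcnip1* was at 0.07 ± 0.16 (p = 0.682), and *Kcnmb1* lies within the span of *Kcnip1* on the chromosome.

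Since the cortical markers had lower means in B6.D2, the genes were also tested against a cortical score, which averages the standardized log2 CPM of the 12 markers in each mouse and was fitted beside genotype. *Kcnk4*, which encodes the mechanosensitive leak channel TRAAK, was the only 1 of the 75 genes at an FDR of 5% with a positive slope (1.33%, against 0.59% of all genes), and none had a negative slope (0.0449% of all genes). *Kcnk4* rose by 0.50 ± 0.07 log2 units per unit of score (FDR = 0.000887). Its level was 2.73, 3.65 and 4.45 CPM in B6 mice and 2.10, 2.74 and 5.25 CPM in B6.D2 mice, with the highest value in B6.D2 mouse 2, the congenic with the highest cortical score, and the slope was 0.42 with an FDR of 0.103 without that mouse. The genotype difference of *Kcnk4* was -0.26 ± 0.16 (p = 0.134) alone and 0.22 (p = 0.0532) beside the score. At an unadjusted p under 0.05, 8 genes (10.7%, against 4% of all genes) had a positive slope. Without B6.D2 mouse 1 positive slopes passed an FDR of 5% for *Kcnk4*, *Kcnj6* (0.51 ± 0.08, FDR = 0.00126), *Kcnj9* (0.17 ± 0.03, FDR = 0.00605), *Kcnf1* (0.20 ± 0.04, FDR = 0.0243) and *Kcnv1* (0.21 ± 0.05, FDR = 0.0456), which is 6.67% of the 75 genes against 1.38% of all genes, and *Kcnk13* had a negative slope of -0.20 ± 0.05 (FDR = 0.0412). *Kcnj6*, *Kcnj9*, *Kcnf1* and *Kcnv1* are among the 13 genes with lower means in B6.D2. The markers and the genes were measured in the same libraries.

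**Figure D4:**
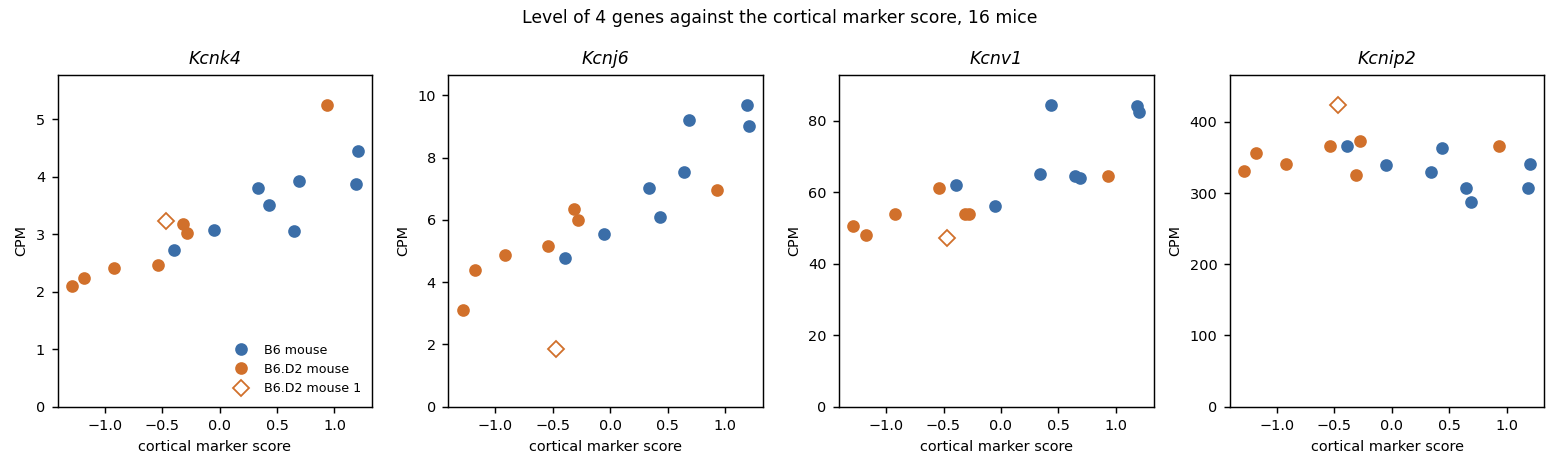
CPM of *Kcnk4*, *Kcnj6*, *Kcnv1* and *Kcnip2* in each mouse against the cortical marker score (mean standardized log2 CPM of 12 markers), with B6 mice in blue, B6.D2 mice in orange and B6.D2 mouse 1 as an open diamond. *Kcnk4* and *Kcnj6* are higher in mice with a higher score in both genotypes, apart from B6.D2 mouse 1 for *Kcnj6* at 1.85 CPM, and *Kcnip2*, the gene with the highest level per length, is shown for comparison.

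With the score beside genotype, the genotype difference moved closer to 0 for 40 of the 75 genes. Among these were 13 of the 14 genes, which had been chosen for their p-values without the score. None of the 14 changed sign, and 2 of the 75 genes had a lower mean at p under 0.05 (2.67%, against 0.648% of all genes). These were *Kcnb2*, at -0.39 ± 0.17 (p = 0.0339), and *Kcnk3*, at -0.19 ± 0.08 (p = 0.0239). In this fit, from which the GIRK values above also come, the log2 fold change was -0.16 ± 0.10 for *Kcnv1* (p = 0.115) and -0.31 ± 0.16 for *Kcnma1* (p = 0.0739). Standard errors of *Kcnb2*, *Kcnk3*, *Kcnv1* and *Kcnma1* were larger than without the score, which also raises p. The median over the 75 genes was -0.06, near that without the score.

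**Figure D5:**
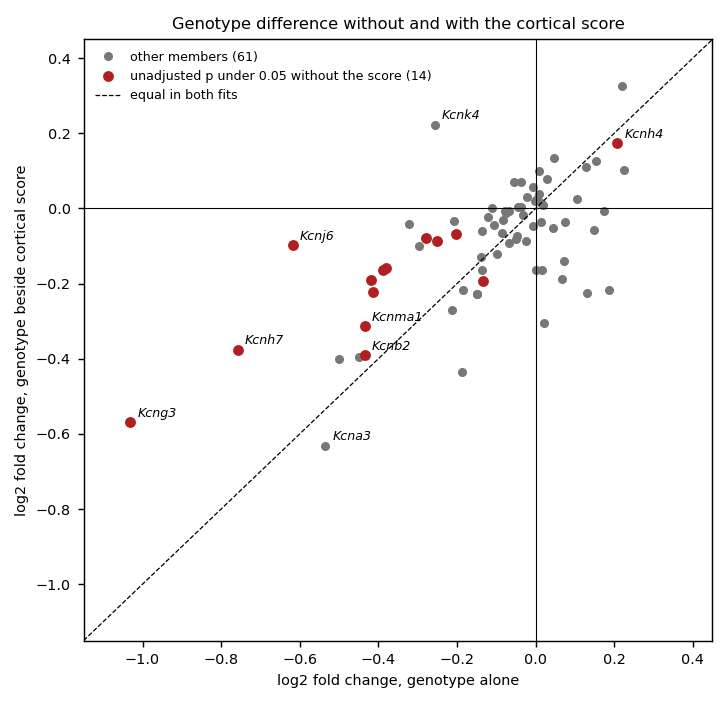
Log2 fold change of B6.D2 over B6 for the 75 genes in the fit with genotype alone (horizontal axis) and in the fit with genotype beside the cortical score (vertical axis), with the 14 genes at an unadjusted p under 0.05 in red and the line of equal values dashed. Of the red points, 13 lie nearer 0 on the vertical than on the horizontal axis, with *Kcnj6* at -0.62 and -0.10 and *Kcnb2* at -0.43 and -0.39. Of all 75 points, 40 do so.

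An oligodendrocyte score from 8 myelin genes was fitted in the same way. All 8 had a higher mean in B6.D2, none at an unadjusted p under 0.05. No potassium channel gene passed an FDR of 5% with a positive slope (0.231% of all genes did) or a negative one (0% of all genes). At an unadjusted p under 0.05, 13 of the 75 genes had a negative slope (17.3%, against 2.84% of all genes). The smallest p-values were those of *Kcnf1* (slope -0.15 ± 0.04, p = 0.00130), *Kcnv1* (-0.15 ± 0.04, p = 0.00423) and *Kcnh7* (-0.39 ± 0.12, p = 0.00452), followed by *Kcnj9*, *Kcnh3* and *Kcnj6*. B6.D2 mouse 1 had the highest oligodendrocyte score of all mice (1.37). It is also the mouse in which 11 of the 75 genes lay more than 1 log2 unit below the other congenics. *Kcnh7* and *Kcnj6* were among those 11, and *Kcnf1*, *Kcnv1*, *Kcnj9* and *Kcnh3* were not. Negative slopes were not counted without that mouse, so how far they rest on it is not given here. With a choroid plexus score from 6 markers none of the 75 genes was at p under 0.05 in either direction (3.4% of all genes were), and 0.0321% and 0% of all genes passed an FDR of 5% with a positive and a negative slope.

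The partner proteins of these channels, a list of 18 genes that do not carry a *Kcn* subfamily symbol or a pore, gave 17 genes tested, with *Lrrc52* below the filter. Their means were lower in B6.D2 for 10 and higher for 7, with a median log2 fold change of -0.01. None passed an FDR of 5%, and 2 of the 17 (against 5.14% of all genes) were lower at an unadjusted p under 0.05. These were *Dpp10*, an auxiliary subunit of Kv4 channels, at -0.17 ± 0.06 (p = 0.0102), and *Lgi1*, a secreted ligand of ADAM22 found in Kv1 complexes, at -0.14 ± 0.05 (p = 0.0165). *Dpp6*, the other Kv4 auxiliary subunit, was at 0.05 ± 0.05 (p = 0.356).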

How the data were processed

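RNA from striatal punches of 16 mice was sequenced by the authors as 50-base single-end reads from poly(A)-selected, stranded libraries, each run on a pair of lanes. Per the submitters' processing notes and the authors' scripts, reads were checked with FastQC 0.10.1, aligned to mm10 with TopHat2 2.0.0 and counted per gene with HTSeq 0.6.1p1 in union mode without strand. The counts were deposited by the authors per mouse and lane, without normalization, and leave out reads with several alignments and reads on exons of more than 1 gene. The deposited tables of the authors' own comparison, with fold changes, p-values and FDRs, were not used.

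Counts of lane files were summed per mouse (B6 mouse 7 enters with 1 lane file). Genes passing filterByExpr were scaled by TMM, and genotype was tested by quasi-likelihood (edgeR 4.0.16, R 4.3.3), 8 mice against 8, with Benjamini-Hochberg adjustment over all genes. The standard error is the log2 fold change divided by the square root of F. Home cage, a term in the study's model, and sex are not in the labels and were not entered. Levels are TMM-scaled CPM, with a prior count of 0.5 on the log2 scale. Exon lengths came from GENCODE vM1 (mm9) by symbol, positions and upstream sequence from RefSeq (GRCm38.p6, the mm10 assembly). The fits were tested on simulated data. Of simulated genotype changes, 20% were recovered at an FDR of 5% at a size of 0.25 log2 units, 69.4% at 0.5 and 98.0% at 1. The simulation drew genes independently and held no library that stands apart. It also held more changed genes than the 1 gene that passed in these data, which eases the FDR threshold. Recovery in these data can therefore be lower than these shares, and differences of these sizes could be missed at that threshold.

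The members, marker lists and tests were chosen with earlier results of these data known. Named are genes at an unadjusted p under 0.05, the leading gene of each subfamily per length, those on chromosome 11, *Kcnmb2*, *Kcnc2* and *Kcna5* of the study's own list, the 6 with the widest spread, the 6 with the smallest p for each score, and 2 on either side of 1 CPM. One gene that this rule names is not reported here and is kept in counts over all members. Of the marker lists, those of interneurons, astrocytes, microglia, endothelium and mural cells, hypothalamus and ventral forebrain, and midbrain dopamine neurons gave no gene at an FDR of 5%. Alternatives covered upper-quartile and RLE scaling, other filters, edgeR's likelihood ratio test, DESeq2 1.42.0, lane pair or cortical score as a covariate, a replicate block, each lane pair alone and each mouse left out. Leaving out B6.D2 mouse 1 and B6 mouse 8 together was chosen after seeing the data. Labels and methods differ on age, punch diameter and RNA kit.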

Additional observations from a re-analysis of the deposited data

Results flagged for a closer look

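A mouse was set aside for a closer look where its log2 CPM lay apart from the other 7 of its genotype by a share of the group's range above Dixon's 95% limit for 8 values. Chance alone flags about 1 in 20 groups, and 100 groups (50 genes in 2 genotypes) were examined, but that rate does not hold here, since some of the genes were named for their wide spread and all share the same 16 libraries. B6.D2 mouse 1 accounted for 12 of the 15 values found. It was the lowest congenic for *Kcna3* (0.188 CPM, next lowest 2.15), *Kcnk9* (0.690, next 5.10), *Kcnn3* (11.007, next 34.2), *Kcnq3* (9.09, next 25.7) and *Kcng1* (9.16, next 16.6). It was also the lowest for *Kcnj3* (5.05, next 10.3), *Kcnh7* (0.784, next 1.42), *Kcnma1* (31.2, next 43.1), *Kcnh1* (45.6, next 63.1) and *Kcnt1* (248, next 324). It was the highest congenic for *Kcne1l* (16.9 CPM, next highest 11.96) and for *Kcnk1* (133, next 110). The remaining values were high ones, for *Kcnj2* in B6.D2 mouse 4 (72.9 CPM, next 58.2), *Kcnk4* in B6.D2 mouse 2 (5.25, next 3.23) and *Kcnj4* in B6 mouse 8 (243, next 196).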

How the results depend on the processing

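Counting error alone, from the mean reads per mouse, came to a median of 4.48% of the within-genotype variance of log2 CPM over the 75 genes and to over 50% for 5 of them, *Kcnk10*, *Kcnj14*, *Kcne4*, *Kcnk12* and *Kcnj8*, where depth limited the comparison most. No potassium channel gene was at an FDR of 5% under the main test or under any alternative except DESeq2, where 1 was (*Kcnv1*, FDR = 0.04998, 16 of 75 genes at an unadjusted p under 0.05). The number of genes lower at an unadjusted p under 0.05 was 13 in the main test and 2 beside the cortical score. With fewer mice compared, it was 8 in the mice of lanes 5 and 6 alone and 9 in those of lanes 7 and 8. These 8 and 9 are not subsets of the 13, since *Kcnd3* was among the 8 and *Kcnj2* and *Kcnk9* among the 9. Leaving out single mice gave 11 to 17, with 17 without B6.D2 mouse 1, and 16 without B6.D2 mouse 1 and B6 mouse 8 together. The matching shares of all genes were 5.14% in the main test, 0.648% beside the cortical score and 7.54% without B6.D2 mouse 1. For the other alternatives, DESeq2 among them, such shares were not counted, so nothing is read from their counts. The median log2 fold change lay between -0.08 and -0.04 over all alternatives, the latter without both of these mice. Genes associated with the cortical score at an FDR of 5% and a positive slope numbered 1, and 0 to 5 with single mice left out: 5 without B6.D2 mouse 1 and 0 without B6.D2 mouse 2. The cause of these shifts was not tested.

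With the mouse number as a replicate block, 13 genes were lower at an unadjusted p under 0.05 (the share of all genes was not counted) and none passed an FDR of 5%. In both genotypes mice 1 to 4 ran on lanes 5 and 6 and mice 5 to 8 on lanes 7 and 8, and the labels give the numbers no other meaning. Deviations of same-numbered mice of the 2 genotypes correlated between -0.12 and 0.36, above 0.1 for 3 of 8 pairs, and not every mouse correlated best with its own number.

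A minimum of 0.5 CPM gave 80 genes and one of 2 CPM 72. Of the genes named, those whose log2 fold change took the opposite sign were all above an unadjusted p of 0.05 under the main test. Among mice of lanes 5 and 6 these were *Kcnc1* (-0.085), *Kcng4* (-0.0028), *Kcnip1* (-0.035), *Kcnj2* (0.047), *Kcnj4* (0.034), *Kcnj5* (-0.068), *Kcnk1* (0.093) and *Kcnmb2* (-0.27), and on lanes 7 and 8 *Kcna5* (-0.024), *Kcnc2* (0.11), *Kcnd2* (-0.0086), *Kcne4* (-0.17) and *Kcnh3* (-0.019). Beside the cortical score they were *Kcna5* (-0.16), *Kcnc1* (-0.035), *Kcne1l* (-0.0074), *Kcng4* (-0.22), *Kcnip1* (-0.19), *Kcnj16* (0.0035), *Kcnj5* (-0.23), *Kcnk1* (0.057), *Kcnk13* (-0.057), *Kcnk4* (0.22), *Kcnmb2* (-0.31) and *Kcnmb4* (0.071). Without B6.D2 mouse 1 and B6 mouse 8 they were *Kcnab2* (0.0041), *Kcng1* (0.0014), *Kcnip1* (-0.088) and *Kcnmb2* (-0.17). *Kcna5* was at -0.0021 with RLE, -0.0024 without a filter and -0.0022 with DESeq2, and *Kcnk1* at 0.0079 with upper-quartile normalization. With single mice left out the values ranged from -0.0499 to 0.0904 for *Kcna5*, -0.022 to 0.0504 for *Kcnc1*, -0.0082 to 0.041 for *Kcnd2*, -0.025 to 0.039 for *Kcnh3*, -0.038 to 0.0953 for *Kcnh6*, -0.035 to 0.15 for *Kcnip1*, -0.077 to 0.0056 for *Kcnj16*, -0.061 to 0.019 for *Kcnk1* and -0.081 to 0.13 for *Kcnmb2*.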

Other observations

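The genotype difference was also compared between the 2 pairs of lanes, each with 4 mice of either genotype. No potassium channel gene had an interaction at an FDR of 5% (edgeR, lowest FDR 0.950), and 2 (2.67%) were at an unadjusted p under 0.05, a share near the 1.88% of all genes. Both are named after their values were seen, and nothing is read from them. *Kcne4*, an inhibitory auxiliary subunit of Kv channels, had a log2 fold change of 0.56 among mice of lanes 5 and 6 and of -0.17 among those of lanes 7 and 8 (interaction p = 0.0209). *Kcna6*, the Kv1.6 delayed rectifier, was at -0.16 and 0.10 (interaction p = 0.0210).

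Of the 18 potassium channel symbols under 1 CPM, several are known from tissues other than the striatum. *Kcnj13*, the inward rectifier Kir7.1 of the choroid plexus and other epithelia, was at 0.212, 0.444 and 1.47 CPM (lowest, median and highest) in B6 and at 0.216, 0.502 and 0.833 CPM in B6.D2 mice. *Kcne2*, an auxiliary subunit found in the same epithelium, was at 0.295, 0.581 and 1.102 CPM in B6 and at 0.216, 0.744 and 1.16 CPM in B6.D2 mice. For both genes the ranges of the genotypes overlapped, and the highest *Kcnj13* value was in a B6 mouse. *Kcnj1*, the ROMK channel of the kidney, reached at most 0.0525 CPM in any mouse.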
